A study of Arabidopsis thaliana with 18 samples.

Results

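The 10 chloroplast protease and chaperone genes described here were chosen by name, with earlier results of these data known, from the 33602 loci counted in Arabidopsis leaves. They are the thylakoid FtsH proteases FTSH1 (AT1G50250), FTSH2 or VAR2 (AT2G30950), FTSH5 or VAR1 (AT5G42270) and FTSH8 (AT1G06430), the lumenal protease DEG1 (AT3G27925), the Clp proteins CLPC1 (AT5G50920), ERD1 or CLPD (AT5G51070) and CLPB3 (AT5G15450), the stromal Hsp70 gene CPHSC70-1 (AT4G24280) and VIPP1 (AT1G65260). All 10 passed the filter on low counts in every comparison. RNA came from leaves of Col-0 wild type (wt), of fc2, and of fc2 pub4, with 3 libraries for each genotype in each light condition and 18 in all. The fc2 plants carry the fc2-1 T-DNA insertion in the leader of FC2, which encodes a plastid ferrochelatase, and fc2 pub4 plants carry in addition the pub4-6 point mutation in PUB4, which encodes a U-box E3 ubiquitin ligase. Each mutant is a single line, and pub4 was not sequenced on its own. Per the labels, the cycling groups (fc2 pub4, fc2 and wt) had 17 days of constant light and then 2 days of 16 h light and 8 h dark, whereas the 24 h groups (fc2 pub4, fc2 and wt) stayed in constant light. All plants were 19 days old and were harvested 1 h after subjective dawn, as the labels state, whereas the text of the study gives slightly younger plants. Leaves of 3 plants were pooled for each library.

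Chloroplasts keep their own protein quality control. In the thylakoid membrane, FtsH subunits of type A (FTSH1 and FTSH5) and type B (FTSH2 and FTSH8) form hexameric ATP-dependent metalloproteases that remove photodamaged D1 protein during photosystem II repair, and DEG1 cuts damaged proteins from the lumen side. In the stroma, CLPC1 and ERD1 are Hsp100-type chaperones that feed substrates to the Clp protease, CLPB3 dissolves protein aggregates, and CPHSC70-1 takes part in protein import and folding. VIPP1 is a membrane-remodelling protein needed for thylakoid upkeep. The fc2 mutant is used to study chloroplast singlet oxygen, because protoporphyrin accumulates in it after a dark period and produces that molecule in light, and FTSH2 has been linked to the turnover of a singlet oxygen signalling protein.

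Libraries held 26994499 to 39382316 counts, with a median of 30874107.5. FC2 reached 52.3 to 68.7 CPM (counts scaled to a common library total, with TMM factors) in fc2 pub4 and 30.0 to 55.8 in fc2, against 131 to 174 in wt, so the insertion line was visible in every library. PUB4 lay between 20.6 and 28.0 CPM in all 18 libraries, and a point mutation is not checked by its transcript level. By the same test, PUB4 was lower in fc2 pub4 than in fc2 in cycling light (log2FC -0.36, padj = 0.00253). In 24 h light its log2FC was 0.04 (padj = 0.819). The 4 leaf mesophyll markers were the photosynthesis genes RBCS1A, CA1 and LHCB1.1 and the transcription factor gene GLK1. Their summed level was 8634 to 11670 CPM in fc2 in cycling light, against 25560 to 27450 in wt. It was, in 24 h light, 16110 to 17760 CPM in fc2 pub4, 18360 to 21350 in fc2 and 20660 to 22670 in wt. The senescence markers SAG13 and SAG12 did not move alike between fc2 and wt in cycling light. SAG13 had 739.9 to 1423 CPM in fc2, against 49.9 to 94.7 in wt (log2FC 4.04, padj = 1.09e-05), whereas SAG12 had 0.370 to 0.690 CPM in fc2, against 0.193 to 11.4 in wt (log2FC -2.97, padj = 0.0421). Within fc2, both were higher in cycling than in 24 h light (SAG13 log2FC 5.10, padj = 1.11e-06, and SAG12 log2FC 7.28, padj = 0.000577). The SAG12 value rests on few counts, at 0.370 to 0.690 CPM in cycling light, and its size is not comparable with that of SAG13. Only 1 of these 2 markers had counts in every library. In bulk leaves, fewer cells of a type and less RNA per cell cannot be told apart. Among the fc2 libraries in cycling light, replicate 3 was the closest to the wt mean for 8 of the 10 genes.

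The gene pairs that moved apart in these leaves are shown first by their upstream sequence, from RefSeq (TAIR10.1). FTSH8 and FTSH2 are the type B FtsH pair and ERD1 and CLPC1 a Clp chaperone pair, and CLPB3 is shown because its level followed that of FTSH8. The stretches end at the base before the annotated start of FTSH8 (chr1:1960031-1963189, minus strand, 5 exons), FTSH2 (chr2:13174279-13177223, plus strand, 5 exons), CLPB3 (chr5:5014212-5018347, minus strand, 9 exons), ERD1 (chr5:20764096-20768764, plus strand, 12 exons) and CLPC1 (chr5:20715453-20720681, minus strand, 10 exons). They cover chr1:1963190-1963300 for FTSH8, where the stretch of 111 bases stops at the neighbouring gene AT1G06440, and 250 bases each at chr2:13174029-13174278, chr5:5018348-5018597, chr5:20763846-20764095 and chr5:20720682-20720931 for the others. Each is written 5′ to 3′ on its gene's strand. Capitals mark the letters of 7 motifs searched on both strands.
FTSH8: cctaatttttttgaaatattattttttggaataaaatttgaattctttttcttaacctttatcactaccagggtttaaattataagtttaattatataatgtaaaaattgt
FTSH2: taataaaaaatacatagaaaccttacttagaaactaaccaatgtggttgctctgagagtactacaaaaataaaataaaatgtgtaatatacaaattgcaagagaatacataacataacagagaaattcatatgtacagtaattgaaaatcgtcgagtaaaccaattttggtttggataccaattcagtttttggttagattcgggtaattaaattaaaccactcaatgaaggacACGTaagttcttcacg
CLPB3: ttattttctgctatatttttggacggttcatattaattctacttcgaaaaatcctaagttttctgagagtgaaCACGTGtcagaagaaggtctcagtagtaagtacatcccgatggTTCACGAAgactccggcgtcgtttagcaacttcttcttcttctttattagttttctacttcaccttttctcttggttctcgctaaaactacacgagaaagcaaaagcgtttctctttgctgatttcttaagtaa
ERD1: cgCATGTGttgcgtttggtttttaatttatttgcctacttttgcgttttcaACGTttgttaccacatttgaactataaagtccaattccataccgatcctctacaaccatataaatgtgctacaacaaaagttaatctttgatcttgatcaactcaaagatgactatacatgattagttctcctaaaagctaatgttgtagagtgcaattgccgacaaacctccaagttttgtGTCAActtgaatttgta
CLPC1: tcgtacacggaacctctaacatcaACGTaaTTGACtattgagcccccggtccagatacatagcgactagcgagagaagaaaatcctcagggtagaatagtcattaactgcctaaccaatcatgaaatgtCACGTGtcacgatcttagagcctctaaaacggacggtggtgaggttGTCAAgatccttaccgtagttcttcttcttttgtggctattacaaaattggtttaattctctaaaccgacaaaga
The motifs were the G-box CACGTG, its core ACGT, the evening element AAATATCT, the heat shock core TTCNNGAA, the NAC site CATGTG first described in ERD1, the W-box core TTGAC (on the other strand GTCAA) and GATAAG. The G-box, which contains the ACGT core, stood in the 250 bases upstream of CLPC1 and CLPB3 and in 6.49% of 27443 promoters. CLPB3 alone among the 10 genes held the heat shock core, at bases -134 to -127 (7.68% of promoters). The NAC site lay at -248 to -243 in ERD1 and, in the part shared with the neighbouring gene and not printed, at -177 to -172 in FTSH8 (11.1% of promoters). TTGAC was found upstream of CLPC1, ERD1 and VIPP1 (44.9%), ACGT upstream of 8 of the 10 genes (44.1%), and AAATATCT (4.79%) and GATAAG (12.3%) upstream of none. The TTGAC and ACGT matches of VIPP1 (first bases -232, -183 and -180) lie beyond the 175 bases free of its neighbour AT1G65250. The ACGT of FTSH8 (-218) likewise lies beyond its 111 free bases, and at CPHSC70-1 a neighbouring gene reaches the start. These matches are descriptions of letters, not of binding.

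Cycling light was first compared with 24 h light in each genotype. Of the 10 genes, 5 rose in fc2 pub4 and 5 in wt, with none falling, whereas in fc2 4 rose and 3 fell. FTSH8, FTSH1, CLPB3 and ERD1 rose in all 3 genotypes, and FTSH5 rose in fc2 pub4 and wt. Genes are called at a padj under 0.01 in edgeR's quasi-likelihood test, adjusted over all genes tested. This held for 40.1% of all genes in fc2 pub4, for 44.1% in fc2 and for 35.3% in wt. In the same order, 20.7%, 22.7% and 19.2% of all genes rose and 19.4%, 21.3% and 16.1% fell. The rises and falls among the 10 genes are to be read against the shares in the same direction.

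Among the type B FtsH genes, FTSH8 was the gene with the largest light response of the 10. It had 539, 485 and 536 CPM in fc2 pub4, 522, 514 and 522 in fc2 and 514, 536 and 495 in wt in cycling light. In 24 h light it had 124, 154 and 133 CPM in fc2 pub4, 197, 149 and 156 in fc2 and 145, 168 and 154 in wt. Every library in cycling light was above every library in 24 h light, and the genotypes overlapped within cycling light. The log2FC was 1.93 ± 0.09 (SE, padj = 5.07e-08) in fc2 pub4, 1.63 ± 0.11 (padj = 4.7e-06) in fc2 and 1.73 ± 0.07 (padj = 5.31e-08) in wt. FTSH8 was the only one of the 10 past an absolute log2FC of 1.5. FTSH2, the more abundant type B subunit, had 831, 801 and 808 CPM in fc2 pub4, 639, 637 and 668 in fc2 and 894, 887 and 862 in wt in cycling light. In constant light the values were 695, 743 and 746 CPM in fc2 pub4, 901, 878 and 816 in fc2 and 726, 817 and 841 in wt. It fell in fc2, by 0.43 ± 0.09 on the log2 scale (padj = 0.00251), where the 2 light conditions did not overlap. In fc2 pub4 its log2FC was 0.17 ± 0.06 (padj = 0.0302) and in wt 0.15 ± 0.07 (padj = 0.114). The fall in fc2 missed the threshold without fc2 24 h replicate 1, fc2 cycling replicate 1 or fc2 cycling replicate 2 (padj = 0.0106 to 0.018).

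The type A genes moved together in fc2 pub4 and wt. FTSH1 had 616, 573 and 613 CPM in fc2 pub4, 422, 430.5 and 505 in fc2 and 661, 685 and 646 in wt in cycling light. The 24 h libraries held 238, 263 and 251 CPM in fc2 pub4, 329, 302 and 289 in fc2 and 279, 319 and 304 in wt. FTSH1 was higher in each cycling library than in any 24 h library, with a log2FC of 1.27 ± 0.06 (padj = 1e-07) in fc2 pub4, 0.55 ± 0.10 (padj = 0.00119) in fc2 and 1.15 ± 0.07 (padj = 5.46e-07) in wt. FTSH5 had 1381, 1245 and 1278 CPM in fc2 pub4, 827, 887 and 1149.9 in fc2 and 1330.2, 1368 and 1254 in wt in cycling light. Its 24 h values were 638, 691 and 676 CPM in fc2 pub4, 795, 841 and 797 in fc2 and 666, 743 and 719.7 in wt. In fc2 the conditions overlapped and the log2FC was 0.23 ± 0.13 (padj = 0.163), while FTSH5 rose by 0.97 ± 0.06 (padj = 6.12e-07) in fc2 pub4 and by 0.90 ± 0.07 (padj = 4.35e-06) in wt. The summed level of the 4 thylakoid FtsH genes was 3235.4 ± 131.8 CPM in fc2 pub4, 2574.8 ± 236.3 in fc2 and 3377.7 ± 111.0 in wt in cycling light (SD, n = 3 each). In the same genotypes it was 1784.5 ± 80.5, 2149.7 ± 83.9 and 1960.7 ± 126.2 CPM in 24 h light.

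**Figure D1:**
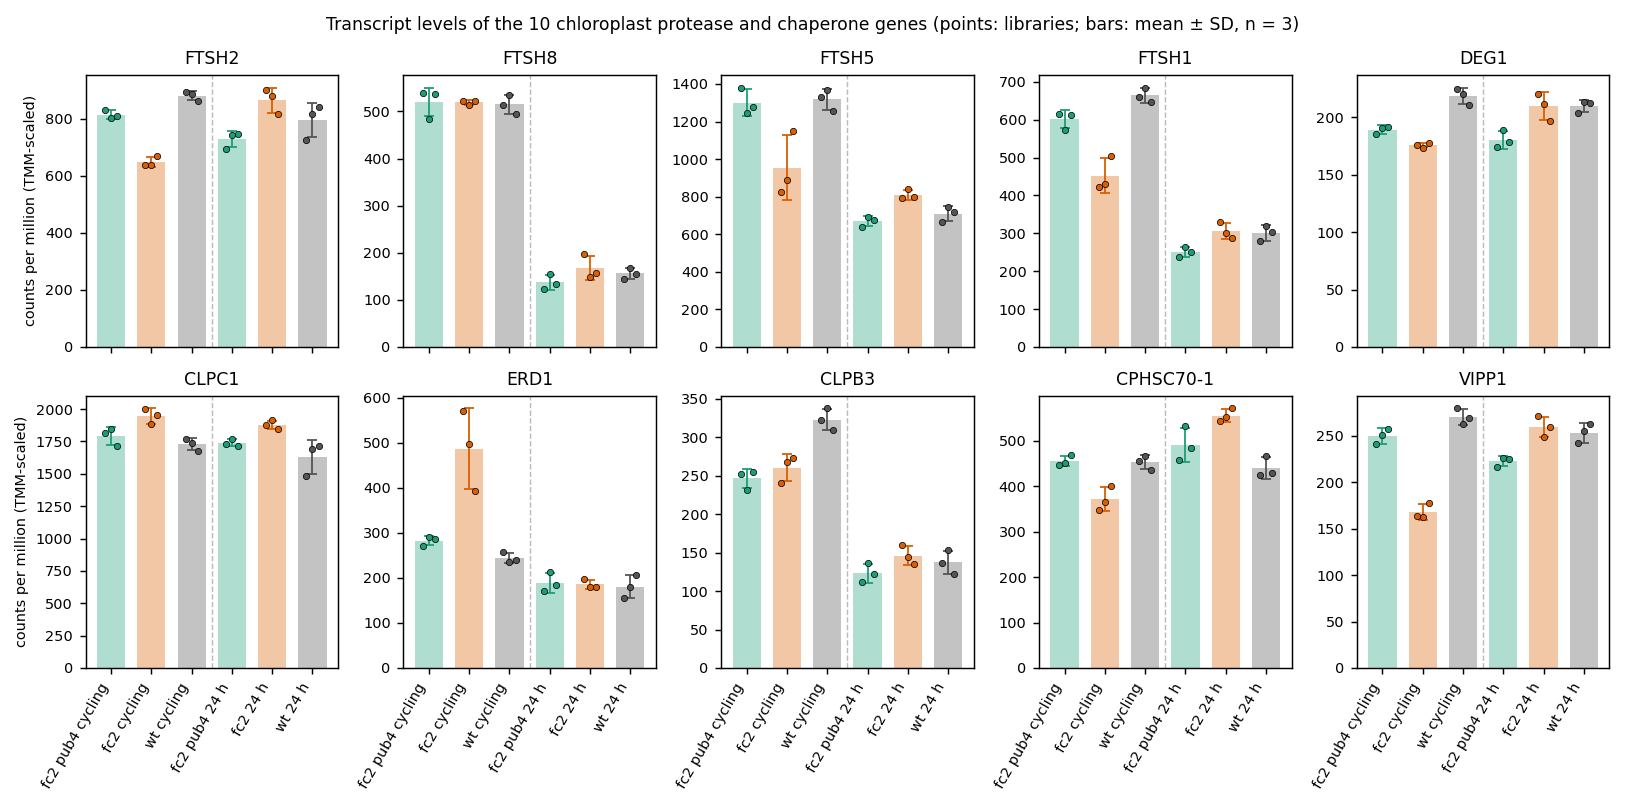
CPM (y axis, one panel a gene, each from 0) of the 10 genes in the 6 groups (x axis, cycling light left of the dashed line and 24 h light right of it); points are libraries, bars the mean and whiskers the SD (n = 3). FTSH8, FTSH1 and CLPB3 stand higher in each cycling library than in any 24 h library, whereas FTSH2 and VIPP1 are lowest in fc2 in cycling light.

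Because both subunits of a type come from the same library, their ratio does not depend on scaling between libraries. FTSH2 had 1.57 ± 0.0761 counts for each count of FTSH8 in fc2 pub4, 1.25 ± 0.0283 in fc2 and 1.71 ± 0.0480 in wt in cycling light (SD, n = 3 each). In those genotypes it had 5.35 ± 0.449, 5.24 ± 0.663 and 5.10 ± 0.312 in 24 h light. FTSH8 thus made up 38.99% of type B counts in fc2 pub4, 44.5% in fc2 and 36.9% in wt in cycling light, and 15.8%, 16.2% and 16.4% in 24 h light. Over the 3 genotypes the log2 ratio was 1.80 lower in cycling light (difference -1.80, exact permutation test within genotypes, two-sided p = 0.00025, 0.000333 adjusted over the 4 ratios tested). The p of 0.00025 is the smallest that the 8000 labelings can give. The difference was -1.77 in fc2 pub4, -2.06 in fc2 and -1.57 in wt. FTSH5 had 2.17 ± 0.0788 counts for each count of FTSH1 in fc2 pub4, 2.099 ± 0.164 in fc2 and 1.98 ± 0.0376 in wt in cycling light. In 24 h light the same genotypes had 2.66 ± 0.0347, 2.66 ± 0.208 and 2.36 ± 0.0321. The log2 difference was -0.30 (exact p = 0.00025, adjusted 0.000333). For type B over type A the log2 difference was -0.33 (exact p = 0.001, adjusted 0.001). With medians over the replicates in place of means it was -0.28 and was not called (adjusted exact p = 0.06). It came to -0.42 in fc2 pub4, -0.14 in fc2 and -0.42 in wt. The fc2 libraries in cycling light spread from 0.72 to 0.93 counts of type B for each count of type A, against 0.693 to 0.714 in wt. Counts compare these genes without regard to their lengths.

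**Figure D2:**
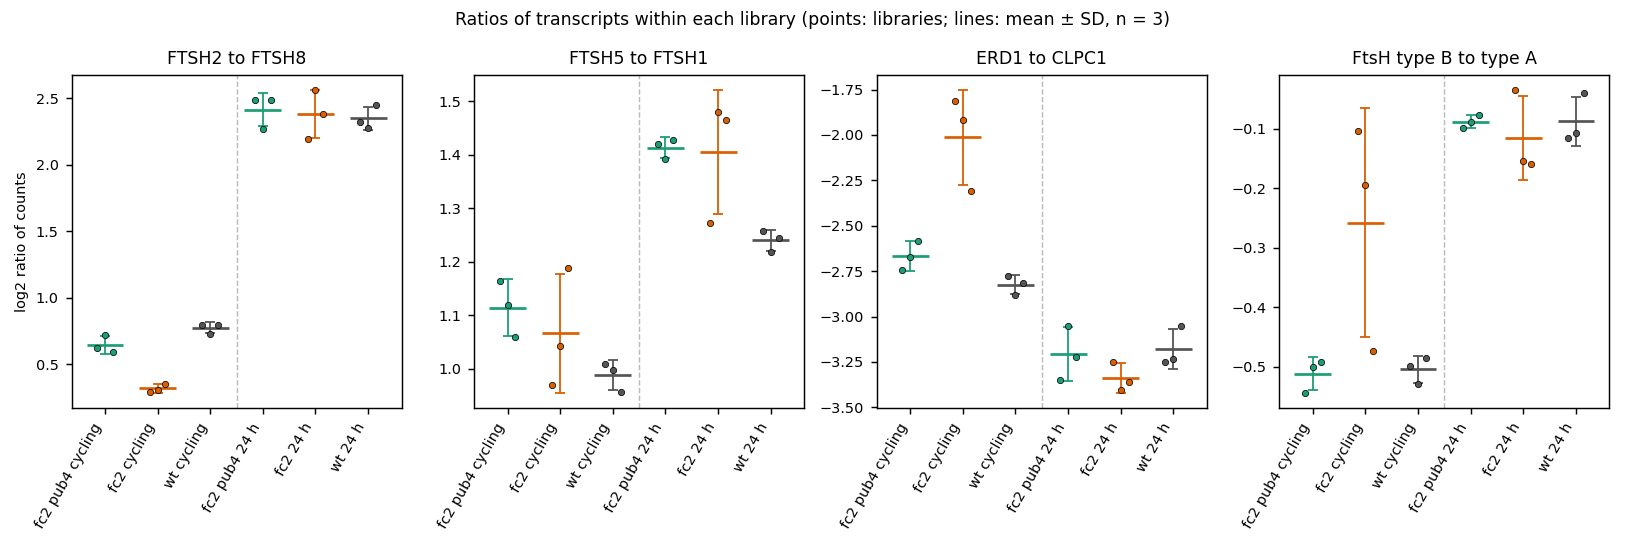
log2 ratio of counts within a library (y axis, one panel a ratio) for FTSH2 to FTSH8, FTSH5 to FTSH1, ERD1 to CLPC1 and FtsH type B (FTSH2 plus FTSH8) to type A (FTSH5 plus FTSH1), in the 6 groups (x axis, cycling light left of the dashed line); points are libraries, lines the mean and whiskers the SD (n = 3). The FTSH2 to FTSH8 ratio lies lowest in fc2 in cycling light, at a mean of 0.32, and between 2.35 and 2.42 in the 24 h groups.

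In the stroma, CLPB3 and ERD1 rose with cycling light and CLPC1 was not called. CLPB3, the disaggregase, had 252, 232 and 255 CPM in fc2 pub4, 241, 268 and 273 in fc2 and 322, 337 and 309 in wt in cycling light. Constant light gave 111, 136 and 122 CPM in fc2 pub4, 159.8, 144 and 135 in fc2 and 136, 153 and 122 in wt. Its groups in the 2 light conditions did not overlap, and the log2FC was 1.01 ± 0.08 (padj = 2.14e-06) in fc2 pub4, 0.82 ± 0.09 (padj = 6.53e-05) in fc2 and 1.24 ± 0.08 (padj = 9.98e-07) in wt. ERD1, known as a dehydration and senescence gene, had 271, 291 and 286 CPM in fc2 pub4, 570.4, 499 and 393 in fc2 and 258, 236 and 239 in wt in cycling light. In 24 h light it had 170.3, 213 and 184 CPM in fc2 pub4, 198, 180.3 and 180.0 in fc2 and 155, 179.9 and 207 in wt. Its log2FC was 0.59 ± 0.08 (padj = 0.000142) in fc2 pub4, 1.38 ± 0.13 (padj = 2.29e-05) in fc2 and 0.44 ± 0.09 (padj = 0.00303) in wt. The call in wt was lost without wt 24 h replicate 2, wt cycling replicate 1 or wt cycling replicate 2 (padj = 0.0106 to 0.017) and with library size as the only scaling (padj = 0.0112). CLPC1, the main Hsp100 partner of the Clp protease, stood between 1715 and 1849 CPM in fc2 pub4, 1885 and 2002 in fc2 and 1678 and 1771 in wt in cycling light. The 24 h range was between 1718 and 1769, 1849 and 1912 and 1482 and 1713 CPM in these genotypes, and light gave it log2FC of 0.04 to 0.09 and padj of 0.386 to 0.734. ERD1 had 0.158 ± 0.00877 counts for each count of CLPC1 in fc2 pub4, 0.2504 ± 0.0435 in fc2 and 0.141 ± 0.00513 in wt in cycling light. The 24 h groups had 0.109 ± 0.0112, 0.0990 ± 0.00563 and 0.111 ± 0.00877. That log2 ratio was 0.74 higher in cycling light over the 3 genotypes (exact p = 0.00025, adjusted 0.000333).

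VIPP1, CPHSC70-1 and DEG1 did not pass the threshold for light in fc2 pub4 or wt. VIPP1 had 241, 251 and 257 CPM in fc2 pub4, 164, 163 and 178 in fc2 and 279, 263 and 269 in wt in cycling light. In constant light the values were 217, 226 and 225 CPM in fc2 pub4, 271, 249 and 259 in fc2 and 242, 255 and 263 in wt. It fell in fc2, by 0.64 ± 0.08 on the log2 scale (padj = 9.59e-05), and all 3 fc2 libraries in cycling light lay below every other library. CPHSC70-1 had 446, 452 and 468 CPM in fc2 pub4, 348, 365 and 401 in fc2 and 455, 467 and 436 in wt in cycling light. The 24 h libraries held 457, 532 and 484 CPM in fc2 pub4, 544, 552 and 571 in fc2 and 424, 468 and 430.2 in wt. It fell in fc2, by 0.59 ± 0.09 (padj = 0.0003), and was both highest in fc2 in 24 h light and lowest in fc2 in cycling light. DEG1 had 185, 191 and 192 CPM in fc2 pub4, 176, 174 and 177 in fc2 and 225, 221 and 211 in wt in cycling light. Its 24 h values were 174, 189 and 179 CPM in fc2 pub4, 221, 212 and 196 in fc2 and 204, 213 and 212 in wt. Its log2FC in fc2 was -0.26 ± 0.07 (padj = 0.0137), and the 2 fc2 groups did not overlap.

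**Figure D3:**
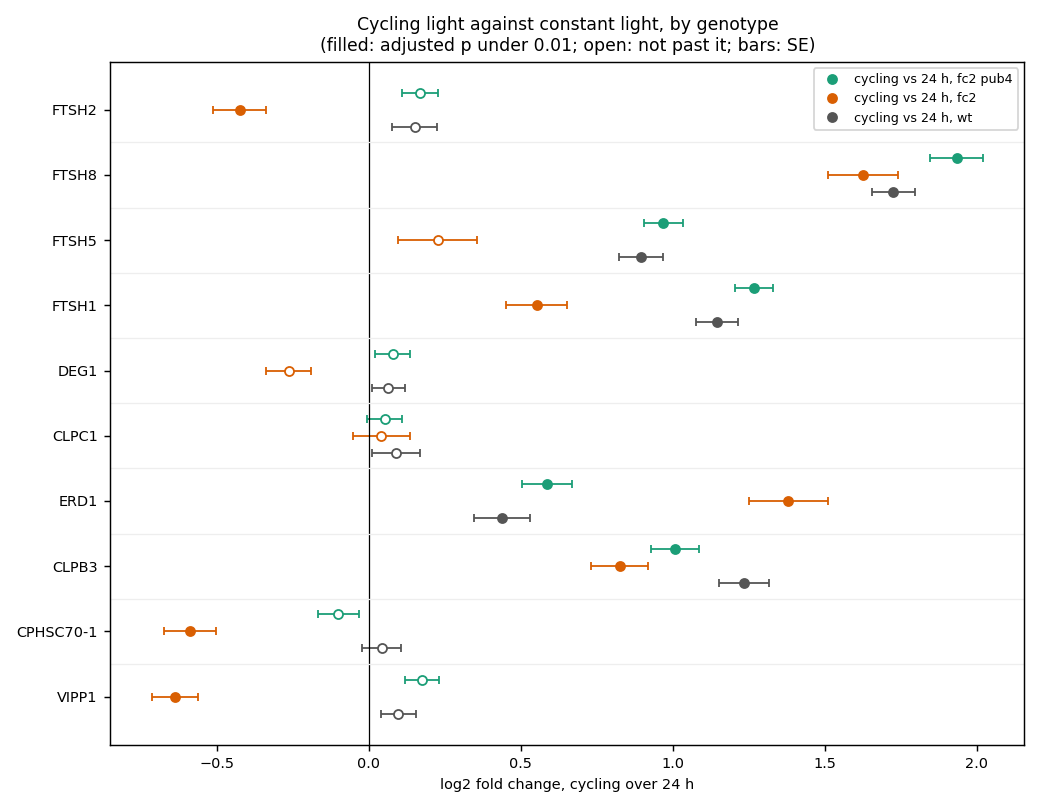
log2FC of cycling over 24 h light (x axis) for the 10 genes (y axis) in fc2 pub4, fc2 and wt; points are estimates and bars their SE, filled where padj was under 0.01. FTSH8 lies at 1.63 to 1.93 in the 3 genotypes, while VIPP1, CPHSC70-1 and FTSH2 are below 0 and filled in fc2, at -0.64, -0.59 and -0.43.

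The mutants were next compared with wt in cycling light. In fc2, ERD1 rose and FTSH1, FTSH2, VIPP1, DEG1 and CLPB3 fell, so that 6 of the 10 genes were called where 42.8% of all genes were, and 5 fell where 21% of all genes fell. The median log2FC of the 10 was -0.29, against -0.002 over all genes tested. ERD1 rose by 1.02 ± 0.12 on the log2 scale (padj = 0.000106), with every fc2 library above every wt library. VIPP1 fell by 0.67 ± 0.06 (padj = 2.87e-05), FTSH1 by 0.53 ± 0.08 (padj = 0.000488) and FTSH2 by 0.42 ± 0.06 (padj = 0.00033), and none of these genes' fc2 libraries reached a wt library. DEG1 fell by 0.30 ± 0.06 (padj = 0.00171) and CLPB3 by 0.29 ± 0.07 (padj = 0.00696). FTSH5 had a log2FC of -0.44 ± 0.12 (padj = 0.0111), CPHSC70-1 of -0.26 ± 0.07 (padj = 0.0116) and CLPC1 of 0.19 ± 0.07 (padj = 0.034), each with groups that did not overlap. FTSH8 had 0.03 ± 0.06 (padj = 0.661), with overlapping groups. Of the 4 FtsH genes, neither FTSH8 nor FTSH5 was called here. The share of all genes whose groups lay apart was not computed for any comparison, so such separation is a description only. The FTSH2 to FTSH8 log2 ratio was 0.46 lower in fc2 than in wt (difference -0.46, exact permutation test of 3 against 3, two-sided p = 0.1, the smallest p this design allows). The ERD1 to CLPC1 log2 ratio was 0.81 higher (exact p = 0.1), the type B to type A ratio 0.25 higher (exact p = 0.1) and the FTSH5 to FTSH1 ratio 0.08 higher (exact p = 0.3).

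The calls of FTSH1, FTSH2, VIPP1 and ERD1 in this comparison held whichever library was left out, whereas DEG1 was lost without fc2 replicate 2, wt replicate 1 or wt replicate 2 (padj = 0.0108 to 0.0121) and CLPB3 without any single library other than fc2 replicate 3 (padj = 0.0129 to 0.0375). Without fc2 replicate 3, 9 of the 10 were called. With library size as the only scaling, the median gene moved to 0.23, and FTSH2, DEG1 and CLPB3 had log2FC of -0.19, -0.06 and -0.06 and were not called. The mesophyll marker sum was lower and SAG13, but not SAG12, higher in fc2 in the same libraries, and their part in the changes of these genes was not tested.

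In fc2 pub4, fewer changes were called against wt. ERD1 rose by 0.22 ± 0.05 (padj = 0.0061), CLPB3 fell by 0.37 ± 0.05 (padj = 0.00022) and DEG1 by 0.19 ± 0.05 (padj = 0.00763), which made 3 of the 10, where 14.3% of all genes were called. The others had log2FC between -0.13 and 0.07. FTSH1, FTSH2 and VIPP1 were at -0.13, -0.10 and -0.10 (padj = 0.0537, 0.0885 and 0.14), and each had its fc2 pub4 libraries below those of wt. CLPB3 was the only gene called whichever library was left out, and 1 gene was called without fc2 pub4 replicate 3, wt replicate 2 or wt replicate 3. The mesophyll sum was 22830 to 23370 CPM in fc2 pub4 and SAG13 had 106 to 178 CPM. SAG12 had 7.72 to 14.2 CPM in fc2 pub4, and against fc2 it was higher (log2FC 4.40, padj = 8.37e-06) where SAG13 was lower (log2FC -3.20, padj = 2.81e-05).

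Compared with fc2 in cycling light, fc2 pub4 had more FTSH1, FTSH2 and VIPP1 and less ERD1 transcript. VIPP1 rose by 0.56 ± 0.07 (padj = 0.000123), FTSH1 by 0.39 ± 0.08 (padj = 0.00359) and FTSH2 by 0.31 ± 0.06 (padj = 0.00271), while ERD1 fell by 0.80 ± 0.12 (padj = 0.000453). These 4 of 10 stand against 36.4% of all genes. FTSH5 had a log2FC of 0.43 ± 0.12 (padj = 0.0137) and CPHSC70-1 of 0.28 ± 0.07 (padj = 0.0101), and both sets of libraries lay apart. CLPB3 had -0.09 ± 0.07 (padj = 0.315) and DEG1 0.09 ± 0.06 (padj = 0.206). This comparison shares its fc2 libraries with that of fc2 and wt and its fc2 pub4 libraries with that of fc2 pub4 and wt, so the 3 are given side by side and not as separate evidence. VIPP1 and ERD1 were called whichever library was left out and with library size as the only scaling. FTSH1 and FTSH2 were lost under that scaling (padj = 0.0247 and 0.0366). They were also lost without fc2 replicate 1, fc2 replicate 2, fc2 pub4 replicate 1 or fc2 pub4 replicate 3, when 2 genes were called.

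**Figure D4:**
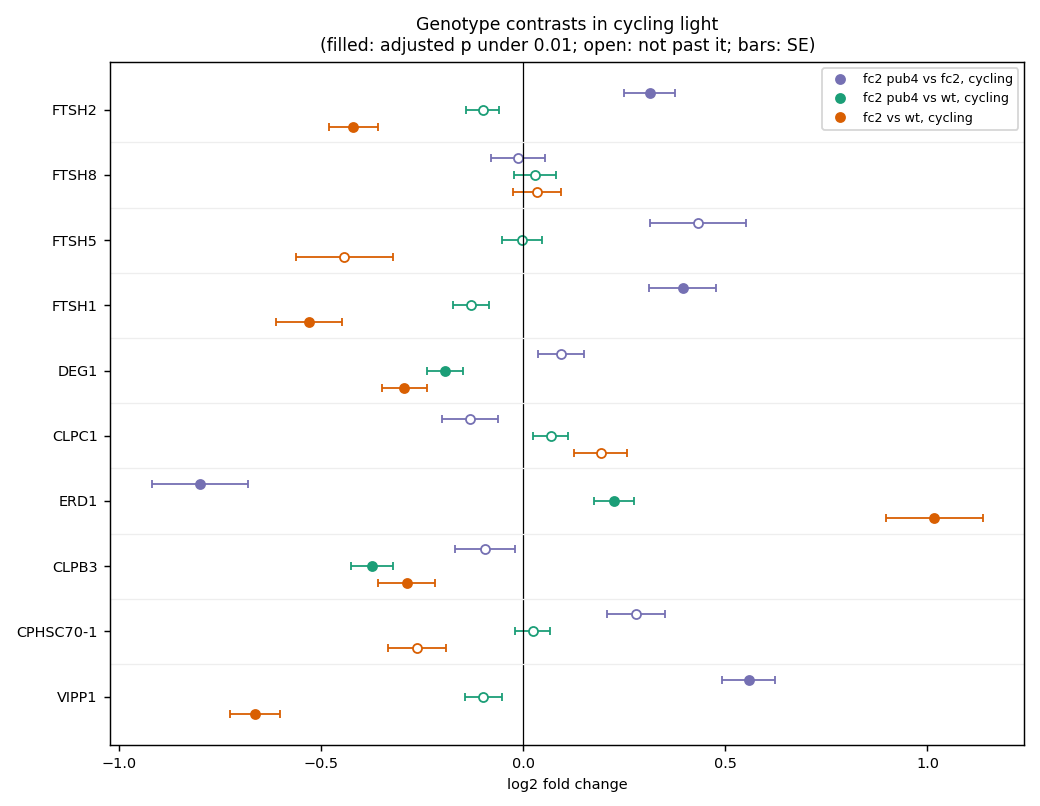
log2FC in cycling light (x axis) of the 10 genes (y axis) for fc2 pub4 over fc2, fc2 pub4 over wt and fc2 over wt; points are estimates and bars their SE, filled where padj was under 0.01. ERD1 is at 1.02 for fc2 over wt and at -0.80 for fc2 pub4 over fc2, VIPP1 at -0.67 and 0.56, and FTSH8 lies near 0 in all 3.

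Whether the light response differed between genotypes was tested directly. Between fc2 and wt, 7 of the 10 genes had an interaction with light, where 31.3% of all genes did. The difference in log2FC was -0.71 ± 0.09 for VIPP1 (padj = 2.27e-05), -0.65 ± 0.15 for FTSH5 (padj = 0.00291), -0.61 ± 0.10 for CPHSC70-1 (padj = 0.000233), -0.57 ± 0.12 for FTSH1 (padj = 0.00134), -0.56 ± 0.10 for FTSH2 (padj = 0.000662), -0.31 ± 0.08 for DEG1 (padj = 0.00823) and 0.96 ± 0.17 for ERD1 (padj = 0.000457). Between fc2 pub4 and fc2 the same 7 genes were called, where 28.3% of all genes were, and these fits share the fc2 libraries. There the differences were 0.79 ± 0.09 for VIPP1 (padj = 1.02e-05), 0.73 ± 0.15 for FTSH5 (padj = 0.00122), 0.70 ± 0.12 for FTSH1 (padj = 0.000279), 0.58 ± 0.10 for FTSH2 (padj = 0.000275), 0.47 ± 0.10 for CPHSC70-1 (padj = 0.00234), 0.32 ± 0.09 for DEG1 (padj = 0.00844) and -0.81 ± 0.16 for ERD1 (padj = 0.00122). They include differences in 24 h light, none of which was called. In that light fc2 pub4 against fc2 had log2FC of -0.28 for FTSH1, -0.27 for FTSH5, -0.24 for FTSH2, -0.215 for VIPP1, -0.21 for DEG1, -0.17 for CPHSC70-1 and 0.03 for ERD1. For DEG1 the log2FC in cycling light was 0.09 (padj = 0.206). FTSH8, CLPB3 and CLPC1 were called in neither, with differences of -0.08 ± 0.13, -0.39 ± 0.13 and -0.03 ± 0.11 between fc2 and wt and of 0.29 ± 0.15, 0.17 ± 0.12 and -0.01 ± 0.10 between fc2 pub4 and fc2. The calls of DEG1 were the least stable, being lost in 10 of the 12 fits that left out 1 library between fc2 and wt (padj = 0.0106 to 0.0244; kept without fc2 24 h or fc2 cycling replicate 3) and in 9 of 12 between fc2 pub4 and fc2 (padj = 0.015 to 0.0252; kept also without fc2 pub4 24 h replicate 2). The calls of the other 6 genes held in all of these fits. With library size as the only scaling, 4 of the 7 remained past the threshold in each test.

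In 24 h light none of the 10 genes was called in any genotype comparison. In fc2 against wt 0.315% of all genes were called, in fc2 pub4 against wt 0.763% and in fc2 pub4 against fc2 1.49%. At an unadjusted p under 0.05 there were 2 of the 10 genes in fc2 against wt, 3 in fc2 pub4 against wt and 7 in fc2 pub4 against fc2, where 15.2%, 20.8% and 22.3% of all genes were. The largest difference between fc2 and wt was that of CPHSC70-1, with a log2FC of 0.34 ± 0.08 (padj = 0.0495) and groups that did not overlap. DESeq2 called this gene, and it called FTSH1 and FTSH5 in fc2 pub4 against fc2, where edgeR gave a log2FC of -0.28 ± 0.08 (padj = 0.0564) and -0.27 ± 0.07 (padj = 0.0593). In that comparison 9 of the 10 estimates were below 0, with a median of -0.23, against 0.003 over all genes tested.

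Levels can be compared between genes only per length, here as CPM per kilobase of exon. In wt in cycling light the order was FTSH5 (528.9 ± 23.4), CLPC1 (492.6 ± 13.5), FTSH2 (331.2 ± 6.37), FTSH1 (258 ± 7.63), FTSH8 (177.6 ± 6.95), CPHSC70-1 (161.5 ± 5.57), VIPP1 (160.1 ± 5.03), DEG1 (121.9 ± 3.96), CLPB3 (101.3 ± 4.41) and ERD1 (69.76 ± 3.43), each with the SD over 3 libraries. The libraries of FTSH5 and CLPC1 overlapped in this order, and so did those of CPHSC70-1 and VIPP1. In fc2 in cycling light CLPC1 was first (554.1 ± 16.8), FTSH8 (179.1 ± 1.71) overlapped with FTSH1 (175.9 ± 17.7), and ERD1 (139.1 ± 25.4) stood in the sixth place and overlapped with CPHSC70-1 (132.5 ± 9.64). In 24 h light CLPC1 was first and CLPB3 last in each genotype, and FTSH2 and FTSH5 overlapped. FTSH6, a further FtsH gene of the thylakoid, had at most 7 counts in any library and was not tested.

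Other genes of the same pathways were taken from lists of the FtsH family, Deg and other proteases, Clp proteins and chaperones of the chloroplast, which held 36 genes besides the 10. Of the 34 tested in fc2 against wt in cycling light, 3 rose and 19 fell, with a median log2FC of -0.25 and 12 without a call, where 21.8% of all genes rose and 21% fell. The list of Deg and other proteases had 8 falls and no rise among 11 genes, with DEG5, a lumenal partner of DEG8, at -0.70 and EGY2, an intramembrane metalloprotease, at -0.69. The chaperones had 6 falls and 1 rise among 10 genes, with the chaperonin subunits CPN60B4 at -0.97 and CPN60A2 at 0.63. The Clp list had 2 falls and 1 rise among 8 genes and the FtsH list 3 falls and 1 rise among 5, where FTSH9 was at -0.52 and FTSH7, its close paralogue, at 0.57. CPHSC70-2, the paralogue of CPHSC70-1, fell by 0.43 ± 0.08 (padj = 0.00107), and CLPC2, that of CLPC1, had -0.06 ± 0.06 (padj = 0.45). In fc2 pub4 against fc2, which shares the fc2 libraries, 19 of the 34 rose and 3 fell, where 17.4% of all genes rose and 19% fell. In fc2 pub4 against wt 3 rose and 2 fell, which is near the 14.3% of all genes called. For light in fc2, 1 of the 34 rose and 26 fell, with a median of -0.79, where 22.7% of all genes rose and 21.3% fell with a median of -0.023. For light in wt, 3 rose and 12 fell, with a median of -0.18, where 19.2% of all genes rose and 16.1% fell with a median of -0.004. SPPA, a thylakoid protease, and FTSH9 were the genes with the largest rise in wt, at 0.77 and 0.80.

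**Figure D5:**
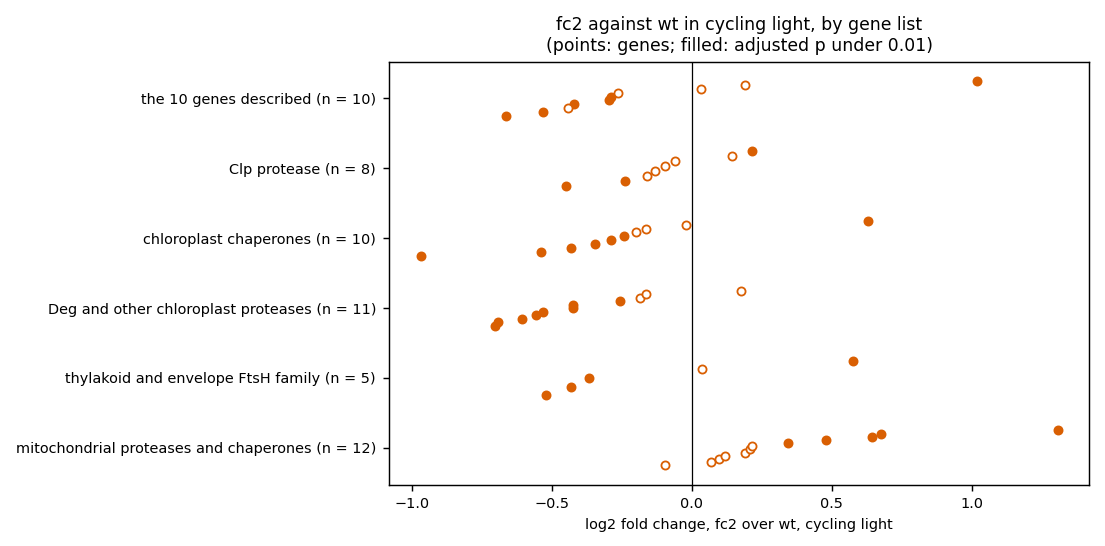
log2FC of fc2 over wt in cycling light (x axis) for the 10 genes and for the other genes of each list (y axis); each point is a gene, filled where padj was under 0.01. The 11 Deg and other proteases hold 8 filled points below 0, and the 12 mitochondrial genes hold 5 filled points above 0, with LON1 at 1.31.

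Across the 18 libraries the 10 genes fell into patterns, given here as descriptions since light and genotype are shared by all points. FTSH1 and FTSH5 had a Pearson r of 0.972 on log2 CPM, FTSH8 and CLPB3 of 0.966, FTSH2 and VIPP1 of 0.925 and FTSH2 and DEG1 of 0.859, whereas FTSH2 and FTSH8 had -0.047. Among 18331 genes with a mean of at least 1 CPM, those most like ERD1 were NAC003 (r = 0.986), ACX1, an acyl-CoA oxidase of the peroxisome (0.985), PYD1, an enzyme of pyrimidine breakdown (0.985), AT5G44290 (0.983) and AT4G25030 (0.982). Those most like VIPP1 were APL1, a subunit of the enzyme that makes ADP-glucose for starch (0.989), PSAH-1, a photosystem I subunit (0.983), AT3G10060 (0.982), AT1G04800 (0.977) and AT3G61080 (0.977).

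The treatment of strand in counting is not given in the sources used here. On the opposite strand, other genes cover 11.66% of the exon bases of FTSH1, 9.25% of FTSH2, 3.78% of CPHSC70-1, 3.73% of FTSH5 and 2.2% of CLPB3, so reads in those stretches could not be told apart if strand was not used. No stretch of 50 bases of any of the 10 genes occurs elsewhere in the genome, the FtsH paralogues included.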

How the data were processed

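Leaf RNA was sequenced from single-end stranded mRNA libraries of 18 samples. Per the labels and the study's methods, the authors aligned the reads to TAIR10 with HISAT2 2.1.0 and deposited raw counts per locus without normalization, with replicates kept apart. StringTie 1.3.4 and DESeq2 are also named in the submitters' processing notes. Of 33602 loci, 32835 were matched to the RefSeq gene table, which also gave symbols. Columns were assigned from their names. No 2 replicates agreed within sampling noise. The labels call the replicates biological.

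For each of 11 comparisons, genes with low counts were removed with filterByExpr, libraries scaled with TMM, and a quasi-likelihood test made (R 4.3.3, edgeR 4.0.16, two-sided, Benjamini-Hochberg over all genes tested, padj under 0.01). Interactions were fitted over the 12 libraries of 2 genotypes. Ratios were taken on counts without a prior count (Python 3.11.15, numpy 2.4.6, pandas 2.3.3, matplotlib 3.10.9) and tested by exact permutation. Totals of 26994499 to 39382316 counts set the precision, and each of the 10 genes had at least 3237 counts in every library. On simulated data the test for fc2 against wt in cycling light (19988 genes) called 97 of 100 genes changed by 1 on the log2 scale and 100 of 100 changed by 2, and the interaction (20222 genes) 73 and 100. Changes between 0 and 1, the size of most genotype differences of the 10 genes, were not simulated, so recovery at those sizes is not known.

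The genes and lists were chosen with earlier results of these data known. The named genes are all 10, FC2 and PUB4, the paralogues CLPC2, CPHSC70-2 and FTSH6, list genes past padj 0.01 and an absolute log2FC of 1 between genotypes (LON1), and the 5 genes most similar to the highest and the lowest of the 10 in fc2 against wt in cycling light. Other list genes were named after their values were seen. List genes whose symbol is not in the RefSeq table (15) were dropped. Alternatives were DESeq2's size factors, library size alone, no filter, DESeq2 1.42.0, a fit of all 18 libraries, a block for replicate numbers, padj under 0.05 and omission of each library in turn, and for ratios a prior count of 2 and medians.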

Additional observations from a re-analysis of the deposited data

Results flagged for a closer look

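Genes whose response to cycling light differed between genotypes, by the interaction term of edgeR's fit, were singled out. Between fc2 and wt the difference in log2FC was 0.96 for ERD1, which rose more in fc2, and -0.71 for VIPP1, -0.65 for FTSH5, -0.61 for CPHSC70-1, -0.57 for FTSH1, -0.56 for FTSH2 and -0.31 for DEG1, which were lower in fc2 in cycling light than the light response of wt would give. Between fc2 pub4 and fc2 it was -0.81 for ERD1 and 0.79 for VIPP1, 0.73 for FTSH5, 0.70 for FTSH1, 0.58 for FTSH2, 0.47 for CPHSC70-1 and 0.32 for DEG1. Both tests use the same fc2 libraries. The calls of DEG1 were lost in 10 and in 9 of the 12 fits that left out 1 library. With 3 libraries a group, no library was tested for standing apart.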

How the results depend on the processing

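No log2FC of a gene called in the main fit and no ratio changed sign under any alternative. The signs of estimates that were not called were not checked. The count of called genes was 1 rather than 0 for fc2 against wt in 24 h light with padj under 0.05, with DESeq2 and with all 18 libraries (CPHSC70-1), 2 rather than 0 for fc2 pub4 against fc2 in 24 h light with DESeq2, 1 rather than 3 for fc2 pub4 against wt in cycling light with all 18 libraries and with the replicate block, 2 rather than 4 for fc2 pub4 against fc2 in cycling light with library size alone, and 4 rather than 7 in both interactions with library size alone. Changes that were smaller relative to the main count are left out of this list. Among them, fc2 against wt in cycling light gained FTSH5, CPHSC70-1 and CLPC1 at padj under 0.05 in edgeR's test (padj = 0.0111, 0.0116 and 0.034). The type B to type A ratio for light was -0.28 with medians (adjusted exact p = 0.06), against -0.33. Leaving out 1 library gave 1 to 3 called genes for fc2 pub4 against wt in cycling light, 2 to 6 for fc2 pub4 against fc2, 4 to 9 for fc2 against wt, 4 to 5, 6 to 8 and 5 for light in wt, fc2 and fc2 pub4, and 6 to 7 for each interaction. Library size alone moved the median gene to 0.23 in fc2 against wt in cycling light and the share of calls that were rises to 74.4%, against 50.8%. In 24 h light DESeq2 called 521 of all genes in fc2 against wt, 832 in fc2 pub4 against wt and 1075 in fc2 pub4 against fc2, against 62, 151 and 295 with edgeR. Replicate numbers were not treated as pairs in the main fits. In no comparison was the correlation of deviations over 0.1 for every pair. In fc2 pub4 against wt in 24 h light it came near that, at 0.101, 0.083 and 0.103, so these values do not settle whether the samples were paired. With the number as a block 6 genes were called in each interaction and 5 in fc2 against wt in cycling light.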

Other observations

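Proteases and chaperones of the mitochondrion were measured in the same libraries. Of 12 such genes in fc2 against wt in cycling light, 5 rose and none fell, with a median log2FC of 0.21, and 8 had an unadjusted p under 0.05. Of all genes 42.8% were called, 21.8% as rises, and 60.5% had an unadjusted p under 0.05, so the number of calls in this list is near that of all genes. LON1, a matrix protease, rose by 1.31 ± 0.10 (padj = 1.34e-05), with a mean of 43.6 CPM in fc2, against 17.9 in wt. CLPB4, the mitochondrial relative of CLPB3, rose by 0.68, and HSP60-2, MTHSC70-1 and MTHSC70-2 by 0.64, 0.48 and 0.34. In fc2 pub4 against fc2, which shares the fc2 libraries, 6 of the 12 fell and none rose, where 36.4% of all genes were called and 19% fell, with LON1 at -1.24 ± 0.10 (padj = 1.8e-05) and a mean of 18.7 CPM in fc2 pub4, against 43.6 in fc2. Its level in fc2 was not called as different between cycling and 24 h light (log2FC -0.05 ± 0.11, padj = 0.706), whereas in wt it fell by 0.82 ± 0.09 in cycling light (padj = 4.66e-05).

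Marker sums of other cell types ranged as follows in cycling light. Guard cell markers summed to 50.13 to 54.56 CPM in fc2 pub4, 49.22 to 51.8 in fc2 and 66.29 to 75.31 in wt, phloem companion cell markers to 83.69 to 98.15, 157 to 192.9 and 163.4 to 178.5 CPM, and flower bud markers to 3.177 to 8.003, 10.06 to 27.95 and 8.343 to 22.93 CPM, in the same order of genotypes. In constant light guard cell markers summed to 42.19 to 44.4 CPM in fc2 pub4, 50.86 to 53.59 in fc2 and 55.74 to 63.29 in wt, those of phloem companion cells to 131.4 to 137.8, 182.5 to 204 and 187.3 to 209.5 CPM, and those of flower buds to 7.073 to 8.957, 19.15 to 45.01 and 4.038 to 8.313 CPM. Their part in any result was not tested.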
